A study of Mus musculus with 9 samples.

Results

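Gas6, Pdgfd, Sema3d and Efnb2 encode ligands that cells secrete or present to their neighbours, and their mRNA levels were followed in mouse satellite cells, the stem cells of skeletal muscle, across culture media and passages. The genes were chosen by name, as 4 of the 11148 rows of the deposited expression table, and with their values already known. Each has 1 value per library, in RPKM, that is, reads divided by gene model length in kilobases and by the library's reads.

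All cells came from limb skeletal muscle of newborn C57/BL6/DBA mice aged 1 to 3 days, with males and females pooled, and grew on collagen-coated dishes. The reference library was F10 medium at passage 0 (P0), whose serum and growth factor content the labels do not give. T cell medium was a 50:50 mixture of T cell medium and F10 medium with 15% serum, to which 2.5 ng/ml FGF was added, and was sampled at P0, P1, P2 and P15. Cytokine medium was F10 medium with 15% serum, 2.5 ng/ml FGF, 5 ng/ml each of IL-1α and IL-13, and 10 ng/ml each of IFN-γ and TNF-α, and was sampled at the same 4 passages. Serum and FGF were thus shared by the T cell and cytokine media. These media differed both in the T cell medium part and in the added cytokines, whose effects cannot be told apart. Any difference from the F10 library may also be one of serum or FGF, and these cannot be told apart either. Each combination of medium and passage was 1 library, 9 in all, and the labels do not say whether the passages came from separate cultures.

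Gas6 is a vitamin K-dependent protein that activates the TAM receptor tyrosine kinases Tyro3, Axl and Mertk, which act in the clearance of dying cells and in the damping of inflammatory signalling. Its relative Pros1, protein S, is the other classical TAM ligand. Pdgfd is a platelet-derived growth factor that is secreted in a latent form and, once cleaved, acts mainly through the receptor Pdgfrb on mesenchymal cells. Sema3d is a secreted semaphorin that steers axons, endothelial cells and neural crest cells through neuropilin and plexin receptors. Efnb2 is a membrane-bound ephrin that signals on contact through Eph receptors of neighbouring cells, and also back into the cell that carries it.

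Most row names of the table do not go with their values. In a fit along the chromosomes, the coordinates of most rows were shifted against annotated exons. Whether such shifts are the cause was not tested. A name was used only in a stretch of rows whose fitted shift was within 2000 bp of 0, which left 797 of 11148 names (7.15%). All 4 ligand genes passed this limit, though not equally well. Efnb2 (ENSMUSG00000001300, mm10 chr8:8617434-8661242, minus strand) and Gas6 (ENSMUSG00000031451, chr8:13465374-13494490, minus strand) had a fitted shift of -40 bp. At that shift, 97.1% and 77.0% of their annotated exon bases still fell on their own exons. Pdgfd (ENSMUSG00000032006, chr9:6168584-6378850, plus strand) had a shift of -280 bp and 54.9%. Sema3d (ENSMUSG00000040254, chr5:12383385-12588948, plus strand) had a shift of -1160 bp and 34.7%, and it is the last name kept before the next shift, with 3 rows between them. At that next shift, its row would cover annotated exons over only 2.4% of its length. The levels of Pdgfd and Sema3d can therefore be underestimates, and levels are not compared between genes here; ratios between libraries are taken within 1 row. The name of Sema3d is the least secure of the 4. The limit was set after the data were seen, and a stricter one left Sema3d out. Passing the limit is therefore no support for that name.

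The first of 2 columns per library is called run 1 here, though the headers do not say what the columns are. It held 13.0 to 18.2 M reads, as recovered from the size of 1 read in each row. Both columns of a library agreed more closely than independent samples would, so they were averaged and counted once. With 1 library per condition, differences between single libraries have a counting interval and no replicate check. All 95% intervals below come from the run 1 reads by exact methods and cover counting error only. The cell type could not be checked at the level of its markers, since none of the 10 myogenic, 10 endothelial, 8 fibroblast or 6 macrophage marker genes considered had a usable name. In bulk RNA, fewer cells that express a gene and less RNA per cell cannot be told apart.

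The 250 bases before the RefSeq start site of each gene (assembly GRCm38.p6) are shown because the genes behaved differently between the media and a reader may want to set the sequences beside the levels. Capitals mark every match to a GC box (GGGCGG, or CCGCCC on the other strand) and to the core site of RBPJ, the Notch effector (TGGGAA, or TTCCCA on the other strand).
Gas6, chr8:13494536-13494785, minus strand: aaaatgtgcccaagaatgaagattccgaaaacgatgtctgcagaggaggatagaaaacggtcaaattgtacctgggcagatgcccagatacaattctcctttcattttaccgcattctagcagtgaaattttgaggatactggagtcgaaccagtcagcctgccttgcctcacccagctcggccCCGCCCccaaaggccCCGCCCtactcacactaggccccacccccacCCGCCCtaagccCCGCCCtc
Pdgfd, chr9:6168236-6168485, plus strand: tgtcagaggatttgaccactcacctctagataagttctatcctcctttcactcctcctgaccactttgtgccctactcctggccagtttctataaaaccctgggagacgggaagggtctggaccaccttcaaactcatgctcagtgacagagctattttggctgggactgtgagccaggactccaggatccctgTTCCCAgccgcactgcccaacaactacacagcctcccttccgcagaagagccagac
Sema3d, chr5:12382916-12383165, plus strand: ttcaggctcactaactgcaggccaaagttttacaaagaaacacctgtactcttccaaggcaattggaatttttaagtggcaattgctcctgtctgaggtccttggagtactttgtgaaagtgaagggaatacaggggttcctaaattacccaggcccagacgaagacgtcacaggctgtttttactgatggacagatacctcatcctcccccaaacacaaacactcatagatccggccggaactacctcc
Efnb2, chr8:8661243-8661492, minus strand: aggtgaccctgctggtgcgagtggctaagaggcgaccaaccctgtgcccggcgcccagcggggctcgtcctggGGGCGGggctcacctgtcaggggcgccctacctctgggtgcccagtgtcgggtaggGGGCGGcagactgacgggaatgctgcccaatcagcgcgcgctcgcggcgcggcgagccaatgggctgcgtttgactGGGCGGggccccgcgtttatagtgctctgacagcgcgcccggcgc

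The Efnb2 promoter had the highest GC content of the 4, 72.0% with 27 CpG dinucleotides, against a median of 52.4% and 6 CpG over 32851 mouse promoters of that length. Gas6 followed with 54.8% and 10 CpG, Pdgfd with 53.6% and 3 CpG, and Sema3d with 46.8% and 4 CpG. A GC box occurred 4 times before Gas6 and 3 times before Efnb2, and 32.7% of all promoters hold at least 1. The RBPJ core occurred once, before Pdgfd, and is found in 21.6% of all promoters. No matches of these motifs overlapped, and the motifs were chosen after the sequences were seen.

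Gas6 was abundant in every library and lower in cytokine medium than in T cell medium at each passage. The F10 library gave 87.7 RPKM. In T cell medium the level was 51.3 RPKM for P0, 62.1 for P1, 156.6 for P2 and 53.2 for P15. In cytokine medium it was 17.9, 12.4, 29.3 and 34.1 RPKM at the same passages. The T cell library at P2 was the highest and the cytokine library at P1 the lowest, 12.7-fold apart, and no cytokine library reached the level of any T cell library. In the order of levels, the T cell libraries at P15 and P0 did not differ beyond counting error, while every other pair of neighbours did.

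Pdgfd was low at P0 in all media and higher at every later passage in both T cell and cytokine medium. The F10 library gave 0.747 RPKM, from 35 reads in run 1. T cell medium had 0.448 RPKM in the P0 library, 3.94 in P1, 7.10 in P2 and 6.90 in P15. In cytokine medium it was 0.485, 1.64, 3.38 and 5.82 RPKM. The 3 libraries at P0 were the lowest of the 9 and lay within counting error of each other. The T cell libraries at P2 and P15 could not be told apart either, nor the T cell library at P1 from the cytokine library at P2.

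Sema3d spanned the widest range of the 4 genes, 135-fold from the lowest to the highest library. F10 medium gave 1.44 RPKM. The T cell libraries gave 4.09 RPKM for P0, 6.05 for P1, 26.0 for P2 and 2.55 for P15. In cytokine medium it was 0.265, 0.193, 1.30 and 1.42 RPKM, and the first pair of these rested on 24 and 23 reads. Every T cell library was above every cytokine library, and the F10 library lay between them. The F10 library and the cytokine libraries at P15 and P2 were within counting error of each other, as were the cytokine libraries at P0 and P1.

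Efnb2 varied least of the 4 genes, with the highest library 1.26-fold above the lowest. F10 medium gave 28.9 RPKM, the highest of the 9. The T cell libraries gave 23.1 RPKM for P0, 23.2 for P1, 22.9 for P2 and 26.0 for P15. In cytokine medium it was 23.9, 24.2, 24.1 and 25.5 RPKM. The ranges of these media overlapped. The step from the F10 library to the next, T cell medium at P15, was the only one between neighbours in the order that exceeded counting error.

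**Figure D1:**
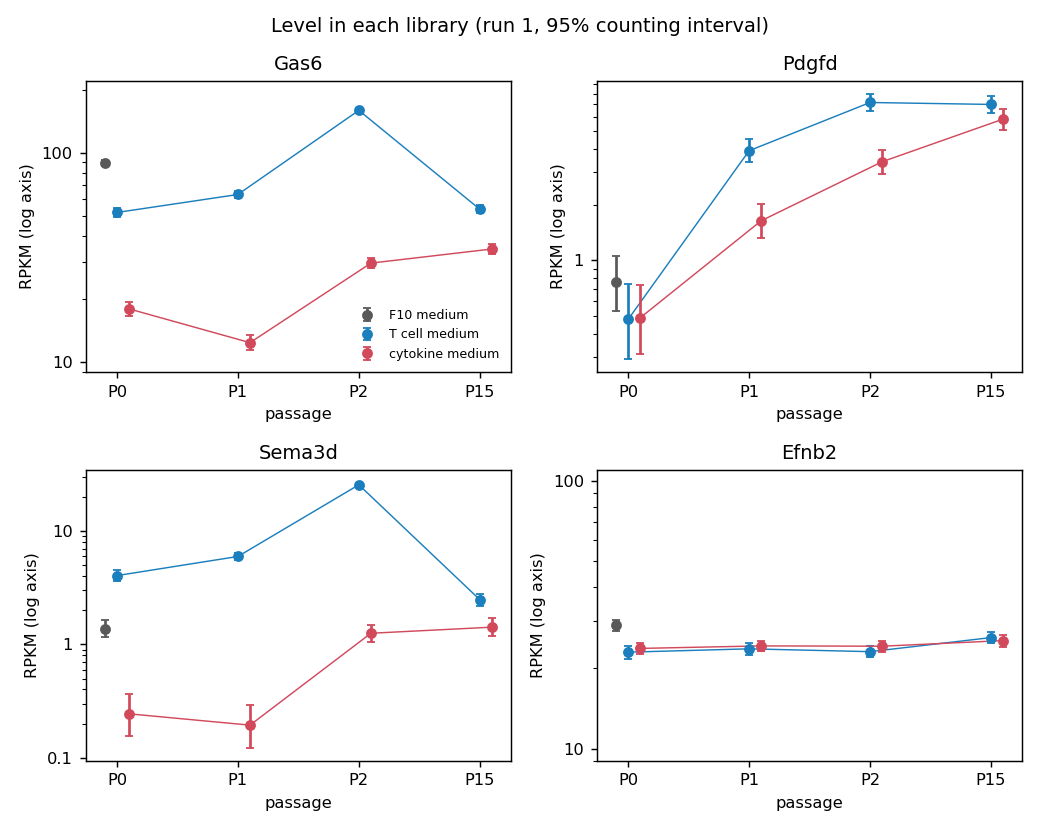
Level of each gene in every library: the y axes give run 1 RPKM on a log axis and the x axes give the passage, with P15 drawn next to P2 and not to scale. Points are libraries coloured by medium, and bars are 95% Poisson counting intervals; Gas6 and Sema3d separate by medium, Pdgfd is higher at the later passages in both media, and Efnb2 stays between 22.9 and 28.9 RPKM.

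At P0, where all 3 media were sampled, Gas6 was highest in F10 medium and lowest in cytokine medium. Its level in T cell medium was 0.585 of that in F10 medium (95% interval 0.547 to 0.614), and its level in cytokine medium 0.204 of it (0.185 to 0.218). Sema3d differed in opposite directions from the same F10 library. It was 2.85-fold higher in T cell medium (2.40 to 3.61) and at 0.184 of the F10 level in cytokine medium (0.109 to 0.274). Efnb2 was lower in both, at 0.801 (0.740 to 0.853) and 0.827 (0.767 to 0.879) of its F10 level. Pdgfd, at 0.601 (0.345 to 1.12) and 0.650 (0.363 to 1.12), did not differ from F10 medium detectably at this depth.

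On the log2(RPKM + 1) scale, which shrinks the changes of low genes, these P0 differences were -0.76 and -2.23 for Gas6 and 1.06 and -0.95 for Sema3d, for T cell and cytokine medium against F10. Of 3210 rows with a mean of at least 1 RPKM, 1.62% were at least 2-fold higher in T cell medium than in F10 medium on this scale, Sema3d among them. In cytokine medium, 1.62% were at least 2-fold lower than in F10 medium, Gas6 among them. No other member passed either limit. Sema3d in cytokine medium, near 0 RPKM, missed it through the added 1 RPKM, and its difference was -2.08 with a pseudocount of 0.1 in place of 1. Both comparisons use the same F10 library, so they are not independent of each other.

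**Figure D2:**
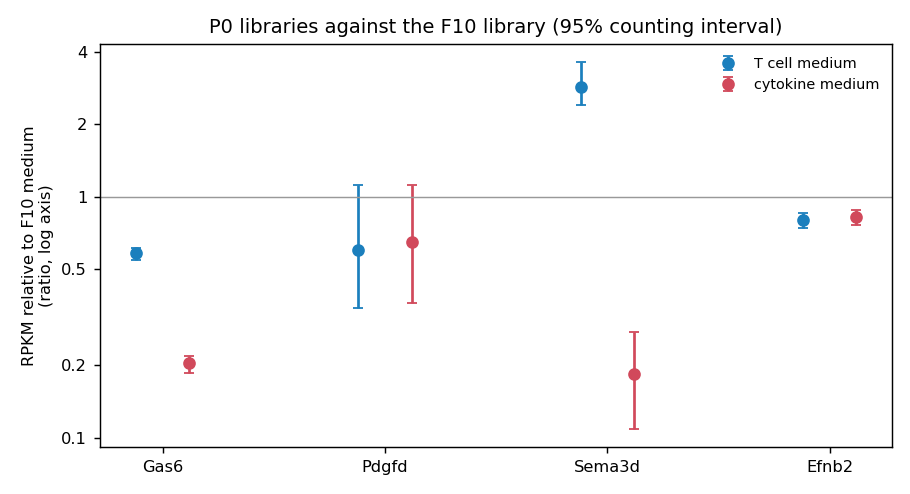
Ratio of each gene's P0 level to its level in the F10 library, in T cell and cytokine medium, on a log axis with 95% counting intervals. Gas6 and Efnb2 lie below 1 in both media, Sema3d lies on opposite sides of 1, and the intervals of Pdgfd include 1.

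Between the media that were followed over passages, the difference was largest for Sema3d, then Gas6, smaller for Pdgfd, and near 0 for Efnb2. The mean level of Gas6 was 80.8 ± 50.8 RPKM in T cell medium and 23.4 ± 10.0 in cytokine medium (SD, n = 4 passages). That of Sema3d was 9.67 ± 11.0 and 0.795 ± 0.657 RPKM. Pdgfd averaged 4.60 ± 3.12 and 2.83 ± 2.32 RPKM, and Efnb2 averaged 23.8 ± 1.45 and 24.4 ± 0.725 RPKM. The SD here is a spread over passages and holds the change with passage as well as error, so the media are compared within each passage below.

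Gas6 was 2.87-fold higher in T cell than in cytokine medium in the P0 pair of libraries, 5.02-fold in P1, 5.35-fold in P2 and 1.56-fold in P15. Sema3d was 15.5-fold higher at P0, 31.3-fold at P1 and 19.99-fold at P2, with lower 95% bounds of 11.0, 20.4 and 17.1. At P15 it was 1.79-fold higher, with a lower bound of 1.40. For both genes the direction was the same at 4 of 4 passages, and the gap was narrowest at P15.

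Pdgfd did not differ between the media at P0 beyond counting error, where the T cell level was 0.924 of the cytokine level. It was 2.40-fold higher in T cell medium at P1 (lower bound 1.86), 2.10-fold at P2 (1.74) and 1.18-fold at P15 (1.01). Efnb2 in cytokine medium was 1.03, 1.04, 1.05 and 0.980 of its T cell level from P0 through P1 and P2 to P15. All 4 of these intervals include 1, and the widest bounds among them lay at 0.908 and 1.12.

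On the log2(RPKM + 1) scale, the difference of cytokine from T cell medium was -1.68 ± 0.81 for Gas6, -0.49 ± 0.48 for Pdgfd, -2.17 ± 1.25 for Sema3d and 0.04 ± 0.04 for Efnb2 (mean ± SD, n = 4 passages), the last of which was -0.02 after quantile normalization. Without P2, where the gap was widest, it was -1.45 for Gas6 and -1.71 for Sema3d. The median over all 3210 rows was 0.03, and the 5th and 95th percentiles were -0.50 and 0.40. Counted from the most negative, Sema3d held place 5, Gas6 place 14, Pdgfd place 166 and Efnb2 place 1658. In limma's moderated test with passage as a term, 5.73% of all rows were lower in cytokine medium at a Benjamini-Hochberg adjusted p under 0.05, and Gas6 and Sema3d were the 2 members among them. The calls depend on each early passage: 356 rows were called in either direction with all 4 passages, 13 without P0, 11 without P1 and 26 without P2. Without the passage term 56 rows were called, and without a filter on low values limma called 0, with 849 rows higher and 821 lower at an unadjusted p under 0.05. The calls of both Gas6 and Sema3d were lost in each of these 5 settings, and stood in the other 7 of 12 for Gas6 and 6 of 11 for Sema3d. All 4 T cell libraries lay above all 4 cytokine libraries in 5.51% of rows, again with Gas6 and Sema3d, and below them in 7.38%, with no member. The members were chosen from these values, so the counts describe them and test nothing.

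The share of strongly lower rows differed between passages for the table as a whole. Rows whose cytokine value was at least 2-fold below the T cell value made up 1.59% in P0, 1.81% in P1, 3.36% in P2 and 0.0623% in P15. Gas6 and Sema3d were among them at the first 3 of these passages and not at P15, and Pdgfd and Efnb2 were among them at none. At P1 and P2, Pdgfd missed the limit through the added 1 RPKM, with differences of -0.90 and -0.89 on this scale. Over rows, the SD of the medium difference fell from 0.54 in P2 to 0.22 in P15, with 0.36 in P0 and 0.42 in P1, so the media were closest at P15 over all rows too.

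**Figure D3:**
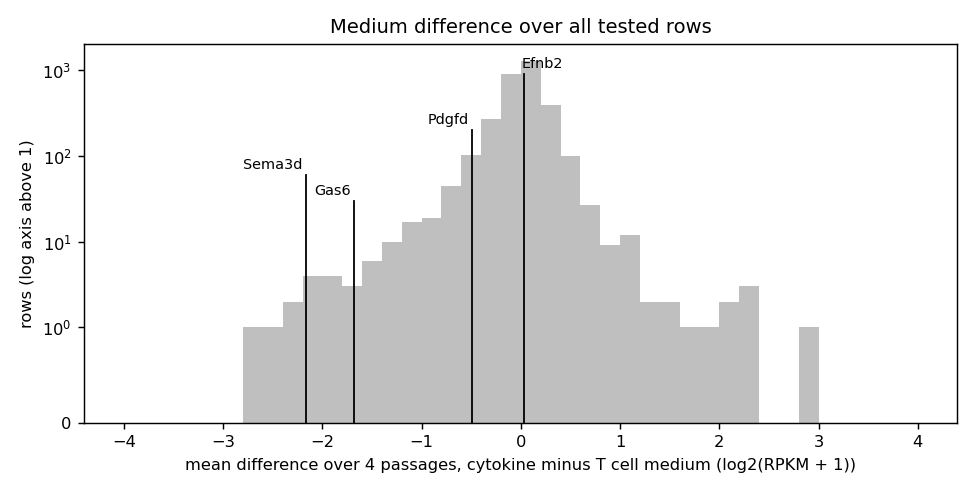
Number of rows by mean difference of cytokine from T cell medium, in log2(RPKM + 1) over 4 passages, in bins of 0.2, with a y axis that is logarithmic above small counts. Lines mark Sema3d at -2.17, Gas6 at -1.68, Pdgfd at -0.49 and Efnb2 at 0.04 in the distribution of 3210 rows.

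Over the early passages in T cell medium, Gas6, Pdgfd and Sema3d were highest at P2, and Gas6 and Sema3d were lower again at P15. From P0 to P2 the ratio was 3.05 for Gas6, 15.8 for Pdgfd (95% interval 9.53 to 24.7) and 6.34 for Sema3d. On the log2(RPKM + 1) scale all 3 were among the 1.28% of rows at least 2-fold higher at P2 than at P0. From P2 to P15, Gas6 came down to 0.340 and Sema3d to 0.0983 of their levels, and both were among the 2.59% of rows at least 2-fold lower. Pdgfd at P15 was at 0.971 of its P2 level (0.840 to 1.13). At P15, Gas6 was back within counting error of P0, with a ratio of 1.04 (0.973 to 1.10), while Sema3d was at 0.624 of its P0 level and Pdgfd at 15.4-fold (9.29 to 24.2), the only member among the 1.65% of rows at least 2-fold higher at P15 than at P0.

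The T cell library at P2 thus held the highest Gas6, Pdgfd and Sema3d values of the 9 libraries, and it is a single library. The largest step of Pdgfd came earlier, with P1 8.78-fold above P0 (5.16 to 13.7). That step put Pdgfd among the 0.374% of rows at least 2-fold higher at P1 than at P0 on the log2(RPKM + 1) scale, and it was the only member there. In the RPKM as deposited, with no rescaling of libraries, Efnb2 in T cell medium was 1.12-fold higher at P15 than at P0 (1.06 to 1.22).

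In cytokine medium none of the 4 genes was highest at P2, and Gas6, Pdgfd, Sema3d and Efnb2 all had their highest cytokine value at P15. Gas6 was 2.37-fold higher at P2 than at P1 and 1.90-fold higher at P15 than at P0. Pdgfd was 3.38-fold above P0 at P1 and 6.96-fold at P2. Its P0 level was 0.0833 of that at P15 (0.0522 to 0.129), and the step from P2 to P15 was 1.72-fold (1.39 to 2.09). Sema3d was 4.91-fold above P0 at P2 and 5.38-fold at P15, and these last levels did not differ beyond counting error, with a ratio of 1.10 (0.875 to 1.46). Efnb2 was 1.07-fold higher at P15 than at P0 (0.994 to 1.15). Of all rows, 0.903% were at least 2-fold higher at P15 than at P1 on the log2(RPKM + 1) scale, Gas6, Pdgfd and Sema3d among them. Against P0, 0.748% were at least 2-fold higher at P2 and 1.28% at P15, and Pdgfd was the only member in each. Sema3d, near 0 RPKM at P0, missed the limit at P2 and P15 through the added 1 RPKM, with differences of 0.86 and 0.94 on this scale.

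The change from the mean of P0, P1 and P2 to P15 had opposite signs in the media for Gas6 and Sema3d, and the same sign for Pdgfd and Efnb2. In log2(RPKM + 1) it was -0.57 in T cell and 0.83 in cytokine medium for Gas6, and -1.48 and 0.68 for Sema3d. The T cell values rest on the P2 library: without P2 they were -0.08 for Gas6, near 0, and -0.75 for Sema3d. It was 1.03 and 1.40 for Pdgfd, and without P0 it was 0.32 and 1.01. For Efnb2 it was 0.16 and 0.08, and its change across media, 0.12, was 0.03 with libraries rescaled to the same sum. Across media, the change of Pdgfd was 1.22, place 10 from the highest of 3210 rows; it was 0.66 without P0. In limma's test with medium as a term, only 0.125% of rows were called higher and 0.125% lower at P15 at an adjusted p under 0.05, none of the 4 members among them, while 274 rows were higher and 341 lower at an unadjusted p under 0.05. The medium difference itself moved toward 0 at P15 by 1.40 for Gas6 and 2.16 for Sema3d, places 32 and 9 from the highest. With a pseudocount of 0.1 the value for Sema3d was 3.24. These changes rest on 1 library per medium at P15.

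Across the 9 libraries, Gas6 and Sema3d levels went together most closely among the 4 genes, with a Pearson correlation of 0.86 on the log2(RPKM + 1) scale. The correlation was 0.50 for Pdgfd with Sema3d and 0.36 for Pdgfd with Gas6. Efnb2 had 0.11 with Gas6, -0.10 with Pdgfd and -0.39 with Sema3d. The 9 points share their media and passages, so these values describe the profiles and carry no test. Among rows with a usable name, the profile most like that of Gas6 was Mkl2 at 0.959, a co-activator of serum response factor. It was Cnih2 at 0.959 for Pdgfd, a cornichon protein of receptor trafficking, and Snx4 at 0.965 for Sema3d, a sorting nexin of endosomes. For Efnb2, whose levels spanned only 1.26-fold, it was Champ1 at 0.886, a chromosome alignment protein. The most opposite profiles were Mcm4 at -0.970 for Gas6, a subunit of the replicative helicase, C330027C09Rik at -0.966 for Pdgfd, Dbf4 at -0.963 for Sema3d, the activator of the kinase Cdc7 in DNA replication, and Unc93b1 at -0.865 for Efnb2, a partner of Toll-like receptors. These are the highest and lowest correlations among the named rows, and they say nothing of shared control.

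Receptors and related ligands could be followed only in part, because few of their names were usable. Of 90 genes listed for the TAM, PDGF, semaphorin and ephrin systems and for other guidance and ligand families, 57 were in the table and 11 had a usable name. Of these, 8 had a mean of at least 1 RPKM, and 4 of the 8 were not members: Pros1, Ephb3, Epha3 and Robo1. No receptor of Gas6, Pdgfd or Sema3d was among them. Ephb3 had a fitted shift of -40 bp, with 91.0% of its annotated exon bases on its own exons. Epha3, Robo1 and Pros1 had a shift of 400 bp, with 55.3%, 55.5% and 32.5%, so their levels can be underestimates. In limma's test with passage as a term, 2 of these 4 were lower in cytokine medium at an adjusted p under 0.05, against 5.73% of all rows, and none was higher, against 5.36%.

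The 2 that were lower are Eph receptors, the class of receptors that ephrins engage. Ephb3 (ENSMUSG00000005958, chr16:21204755-21223305), a receptor for B-type ephrins such as Efnb2, stood at 1.89 RPKM in F10 medium. From P0 to P15, its T cell values were 3.40, 1.41, 4.66 and 1.19 RPKM, and its cytokine values 0.695, 0.314, 0.430 and 0.851 RPKM. All T cell libraries were above all cytokine libraries. The difference was -1.12 in log2(RPKM + 1) (SE 0.255, limma adjusted p = 0.0426), lower in cytokine medium at 4 of 4 passages. Without P0, P1 or P2, or without the passage term, the limma adjusted p rose to between 0.0792 and 0.16, so the call rests on all of these libraries; over all alternatives it ran from 0.0091 to 0.286.

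Epha3 (ENSMUSG00000052504, chr16:63543534-63864175), a receptor that mainly binds A-type ephrins, stood at 1.25 RPKM in F10 medium. It was 3.70, 3.20, 2.77 and 3.20 RPKM in T cell medium and 1.72, 1.95, 1.14 and 1.93 RPKM in cytokine medium, again with no overlap. The difference was -0.66 (SE 0.082, limma adjusted p = 0.0154), lower at 4 of 4 passages. Its limma adjusted p was 0.0824 without P0, 0.0832 without P1 and 0.0547 without P2, and ran from 0.0083 to 0.217 over all alternatives. These receptors were lower in the medium where the level of the ephrin ligand Efnb2 did not differ beyond counting error.

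For Pros1 (ENSMUSG00000022912, chr16:62854307-62929346), the other TAM ligand, no difference between the media passed the test. It stood at 3.17 RPKM in F10 medium, at 6.31, 6.22, 6.85 and 8.09 RPKM in T cell medium and at 5.09, 6.69, 7.24 and 6.62 RPKM in cytokine medium. The ranges overlapped, and the difference of -0.09 (SE 0.089) had a limma adjusted p of 0.533. Robo1 (ENSMUSG00000022883, chr16:72308306-73046095), a receptor of the Slit guidance proteins, stood at 4.69 RPKM in F10 medium. It was 5.34, 5.28, 9.10 and 5.73 RPKM in T cell medium and 6.44, 7.53, 7.71 and 5.70 RPKM in cytokine medium, and its difference of 0.11 (SE 0.113) had a limma adjusted p of 0.530. The remaining usable names were near 0, with means of 0.038 RPKM for Robo2, 0.061 for Fgf12 and 0.084 for Tnfsf13b.

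**Figure D4:**
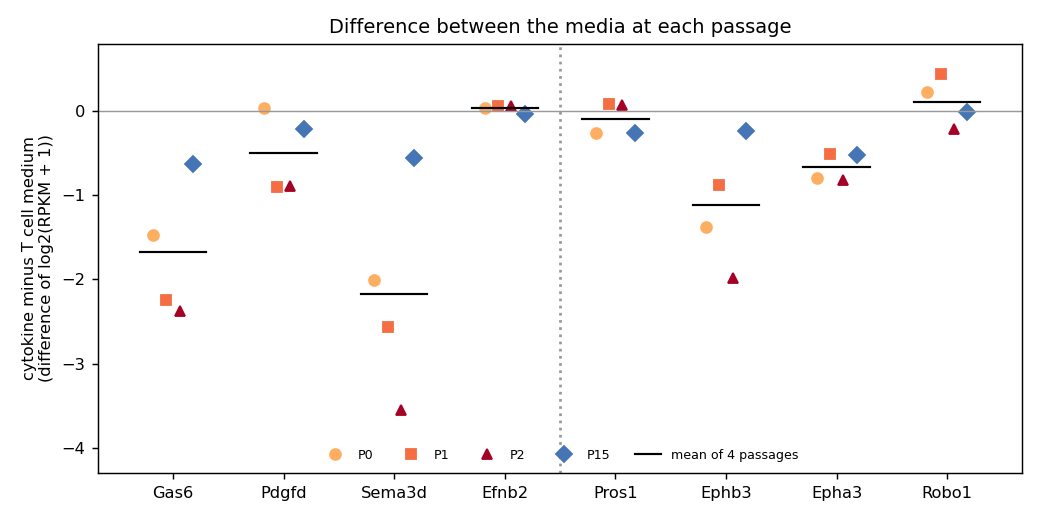
Difference of cytokine from T cell medium in log2(RPKM + 1) at each passage, for the 4 ligand genes to the left of the dotted line and 4 listed genes to its right; symbols are passages and bars are means of 4 passages. Gas6, Sema3d, Ephb3 and Epha3 lie below 0 at every passage, and for Gas6, Sema3d and Ephb3 the P15 point is nearest to 0.

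Marker genes of other cell types were usable by name in 5 of 49 cases. Myh11, a smooth muscle myosin, had a mean of 0.069 RPKM, with 0.400 in the F10 library and 0.137 in T cell medium at P0. Adipoq, the fat cell hormone adiponectin, had a mean of 0.0027 RPKM with 0 listed in every library but F10. Fabp4, found in fat and endothelial cells, had a mean of 0.627 RPKM and its highest value, 2.15 RPKM, in cytokine medium at P1. At P0, Cd80 stood at 5.20 RPKM in F10 medium, 1.05 in T cell medium and 1.07 in cytokine medium. Cd80 differed by -0.54 between cytokine and T cell medium (limma adjusted p = 0.058), and Gap43, a protein of growing axons, by 1.13 (limma adjusted p = 0.0952). The part of other cell types in the ligand differences was not tested.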

How the data were processed

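RNA of the satellite cells was extracted with a Qiagen kit and sequenced as 9 TruSeq libraries (per the labels' protocols). The authors deposited 1 table of RPKM values, per the file headers, with 2 columns per library whose numbering is not explained. The submitters' processing notes name TopHat2 2.0.1, HTSeq 0.5.4p2 and mm10 but assign them no role; annotation and strand setting were not given in the sources used here.

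From these values, the mean of both columns was taken as 1 sample. Their chi-square per row, about 1 for independent samples, ran from 0.434 to 0.469. Run 1 reads came from the size of 1 read in each row (within 0.02 of a read), and gave exact Poisson intervals for levels and exact conditional binomial (Clopper-Pearson) intervals for ratios at 95%. The fold is that of the mean columns.

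Identifiers were matched to GENCODE vM21 (11105 of 11148). A stepwise shift between rows and annotated exons was fitted per chromosome in 40 bp steps within 8 Mb, with each change of shift costing 9 log-likelihood units. Names were used in segments within 2000 bp of 0 with at least 15 rows, leaving out the last 3 rows before another segment. That limit was set after the data were seen. Of the usable names, 450 of 797 lie on chromosome 16.

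Comparisons over many rows used limma 3.58.1 (R 4.3.3) with a mean trend on log2(RPKM + 1), 3210 rows with a mean of at least 1 RPKM, and Benjamini-Hochberg adjustment over all of them. With no separate cultures named, its p-values measure only the spread between these libraries, with passages in place of replicates. No count test was run, since RPKM are not counts. The scripts were tested on simulated data. For the shifts, these data were drawn from the fitted model itself, so that test cannot show that the kept names are right. The 4 genes and the gene lists were chosen with earlier results of these data known. Genes are named as members, as listed pathway or marker genes with a usable name, or as the most and least alike profiles. Alternatives were each passage left out, pseudocount, filter, scaling, the passage or medium term and single columns.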

Additional observations from a re-analysis of the deposited data

Results flagged for a closer look

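For Sema3d, the change from the mean of P0, P1 and P2 to P15 went down in T cell medium and up in cytokine medium. The difference of these changes, cytokine minus T cell medium, was 2.16 in log2(RPKM + 1). No p-value is given for it, since the gene was chosen for its values.

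For Ephb3, the same difference was 1.17, with the T cell library at P15 below the mean of the earlier ones and the cytokine library above it. In limma's test of the 4 within-passage differences it had an adjusted p of 0.649.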

How the results depend on the processing

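The directions of Gas6, Pdgfd and Sema3d between cytokine and T cell medium held in every alternative run for them; the filter of 5 RPKM leaves out Pdgfd and Sema3d. Efnb2 was -0.0165 between these media after quantile normalization. Its change at P15 was 0.10 after quantile normalization and 0.0313 with libraries rescaled to the same sum, and its change in medium difference at P15 was -0.10 and -0.0427. That of Sema3d was 3.24 with a pseudocount of 0.1. In limma, 356 rows differed between cytokine and T cell medium; 11 to 26 did without P1, P0 or P2 (11, 13 and 26), 56 without the passage term, 221 with a filter of 5 RPKM, and 0 without a filter, where 849 rows were higher and 821 lower at an unadjusted p under 0.05. For P15 against earlier passages, 8 rows passed; 5 did without P0, 1 without P1, 24 without P2, 5 without the medium term, 14 with a pseudocount of 0.1, 21 without a filter and 2 with a filter of 5 RPKM. For the medium difference at P15, 7 rows passed; 13 did without P0, 38 without P2, 1 after quantile normalization and 12 after rescaling. In limma it was 0 without P1 (161 higher, 93 lower at an unadjusted p under 0.05) and 0 without a filter (386 and 371). At least 2-fold from F10 medium were 69 rows in T cell and 122 in cytokine medium, against 125 and 194 with a pseudocount of 0.1 and 45 and 66 with a filter of 5 RPKM. The cause of these shifts was not tested. The passage term pairs the media within passages, and the labels carry no replicate numbers to pair by. At this depth, ratios of Pdgfd and Sema3d at P0 rest on 20 to 354 reads per library.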
